A study of Mus musculus with 25 samples.

Results

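The response of mouse lung to 25 Gy was measured in animals that also received FTY720-phosphonate, a sphingosine 1-phosphate (S1P) analogue named fTyS on the arrays. The 3 arrays titled radiation with fTyS were set against the 3 arrays titled drug control fTyS, which together are 6 of the 25 arrays in the series. Every gene that passed a filter on low signal was tested, 12937 of the 18193 genes on the array. The radiation+fTyS mice received 1 thoracic dose of 25 Gy and intraperitoneal (S)-FTY-phosphonate at 0.1 mg/kg, 2 times a week. The fTyS mice received the same compound on the same schedule without radiation. Further groups are used here only to show where that response differs. Radiation mice (3 arrays) received 25 Gy alone, and control mice (4 arrays) received PBS. Radiation+SEW and SEW mice (3 arrays each) received SEW-2871, and radiation+FTY and FTY mice (3 arrays each) received FTY720, at the same dose and schedule as fTyS, with and without the 25 Gy. All animals were female wildtype C57BL/6J mice of 14 to 17 weeks and 20 to 25 g, and the series text counts as many mice as arrays in each group. The time between irradiation and lung collection is not given in the sources used here.

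Radiation breaks DNA, and the damage stabilises the transcription factor p53, which is otherwise marked for degradation by the ubiquitin ligase Mdm2. Stabilised p53 then switches on genes for cell cycle arrest, DNA repair, apoptosis and its own restraint, Mdm2 among them. S1P is a lipid made by sphingosine kinases, degraded by S1P lyase and sensed by G protein-coupled receptors that in lung control endothelial barrier function, and in lymphoid organs the exit of lymphocytes into blood. FTY720 becomes active at these receptors once it is phosphorylated, and fTyS carries a phosphonate in place of the phosphate. SEW-2871 is a chemically unrelated agonist of S1P receptor 1. Thoracic irradiation of rodents is used as a model of radiation lung injury, in which inflammation precedes fibrosis.

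Values are log2(signal + 16), where signal is the deposited array intensity, and a difference is the mean of the radiation+fTyS arrays minus the mean of the fTyS arrays on that scale, which understates changes of dim genes. Genes were tested with limma over all 25 arrays and called at a Benjamini-Hochberg adjusted p of at most 0.05. Of the 12937 genes, 59 were called, which is 0.456% of those tested. The 43 genes that rose make up 0.332% and the 16 that fell 0.124%. At these shares a short gene list can hold no call without differing from all genes, so the lack of a call sets no list apart. The increases had a median of 0.57 log2 units and the decreases a median of -0.62, and 5 genes rose and 2 fell by more than 2-fold. On all 59 genes the radiation+fTyS arrays lay apart from the fTyS arrays, as they did on 15.8% of all genes tested. The median difference over all genes was -0.00078, and the 95% confidence interval of a gene reached a median of 0.222 log2 units to either side, so that the number of arrays limits the precision.

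Several properties of single arrays bear on these values. The tissue label was met by the lung epithelial markers, since the 13 alveolar type 2 genes averaged 12.30 to 12.42 in radiation+fTyS lungs and 12.17 to 12.31 in fTyS lungs, and the 12 alveolar type 1 genes 12.00 to 12.20 in radiation+fTyS lungs and 12.03 to 12.22 in fTyS lungs, where the filter stood at 6.49. Tissue from outside the lung parenchyma varied between arrays. The skeletal muscle list averaged 6.37, 11.15 and 8.21 on the radiation+fTyS arrays and 7.14, 12.41 and 10.65 on the fTyS arrays, and the squamous epithelium and thymus list was high on replicate 2 of both groups (10.37 in radiation+fTyS and 10.12 in fTyS, with 6.12 to 6.42 on the other 4 arrays). The array labelled control replicate 4 went against its label on p53 target genes, whose mean was 9.89 there, 9.78 to 9.94 on the 12 irradiated arrays and 9.32 to 9.53 on the other 12 unirradiated arrays. It is no member of the comparison, but it enters the estimate of the spread that all groups share. Without it 158 genes were called (1.22%), 99 higher and 59 lower, and all 59 genes called above were among them. With the replicate number as a block the count was 142 (1.10%), of which 58 were shared, and in that fit the array labelled control replicate 4, the only one with its number, carries no weight. The count rested on each of the 6 arrays: it was 10 without radiation+fTyS replicate 1, 100 without replicate 2 and 3 without replicate 3, and 11, 0 and 20 without fTyS replicates 1, 2 and 3. Arrays outside the comparison moved it through the shared spread, to 7 without SEW replicate 3, 23 without radiation+SEW replicate 2 and 33 to 39 without control replicate 2, SEW replicate 1, FTY replicate 1, radiation replicate 3, radiation+SEW replicate 3 or radiation+FTY replicate 1. Without fTyS replicate 2 limma still gave 1205 genes an unadjusted p under 0.05, against 1721 with every array.

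The genes that p53 switches on held the most calls of the 43 gene lists under fTyS. Of the 27 tested p53 targets, 8 rose and none fell, where 0.332% of all genes were called higher. Their median difference was 0.33, beside -0.00078 over all genes, and 24 of the 27 lay above 0. The targets were chosen from textbook knowledge with earlier results of these data known, so the count is a description. It was 9 without the array labelled control replicate 4, which added Trp53inp1, and 9 with the replicate block, where 0.765% and 0.696% of all genes were called higher. It was 4 without radiation+fTyS replicate 2 and 0 without any other single array of the comparison, between 0 and 4 without any 1 array of the radiation, radiation+SEW, SEW or radiation+FTY groups, control replicate 2 or FTY replicates 1 or 2, 1 after quantile normalization and 0 after median centring of the arrays.

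Psrc1, a microtubule-binding protein of the mitotic spindle, had the largest difference of the group. It stood at 8.51, 8.68 and 8.45 on the radiation+fTyS arrays and at 6.37, 6.95 and 6.45 on the fTyS arrays. All radiation+fTyS arrays were higher than all fTyS arrays, a difference of 1.96 ± 0.43 log2 units (SE) or 3.89-fold (limma, adjusted p = 0.0488). The other 2 probe sets of Psrc1 differed by only -0.01 to 0.22, so the change was seen by 1 of its 3 probe sets. Eda2r encodes the receptor of ectodysplasin A2 and had values of 9.02, 8.79 and 8.84 in radiation+fTyS lungs and of 7.13, 7.54 and 6.71 in fTyS lungs. The groups lay more than 1 log2 unit apart at their nearest arrays, and the difference was 1.75 ± 0.37 (limma, adjusted p = 0.045). Phlda3, an inhibitor of Akt signalling, was at 11.01, 11.09 and 10.86 in radiation+fTyS lungs and at 9.98, 10.16 and 9.35 in fTyS lungs. Its groups did not overlap, with fTyS replicate 3 the lowest array, and the difference was 1.16 ± 0.25 (limma, adjusted p = 0.0488).

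Zmat3, an RNA-binding zinc finger protein, reached 10.76, 10.50 and 10.80 in radiation+fTyS lungs and 9.90, 9.88 and 9.69 in fTyS lungs. The spread within each group was less than the gap between them, and the difference was 0.87 ± 0.17 (limma, adjusted p = 0.034). Polk, the translesion DNA polymerase kappa, had 9.17, 9.04 and 9.23 in radiation+fTyS lungs and 8.62, 8.51 and 8.65 in fTyS lungs, a difference of 0.55 ± 0.11 (limma, adjusted p = 0.0359). Aen, a nuclease that acts in apoptosis, was named after its values were seen. It had 9.48, 9.02 and 9.50 in radiation+fTyS lungs and 8.54, 8.69 and 8.60 in fTyS lungs, with radiation+fTyS replicate 2 nearest to the unirradiated arrays, and the difference was 0.72 ± 0.16 (limma, adjusted p = 0.0499). Its 3 other probe sets differed by 0.27 to 0.90 in the same direction.

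The smallest increases among the targets belonged to Mdm2 and Ei24. Mdm2 was at 10.61, 10.60 and 10.67 in radiation+fTyS lungs and at 10.29, 10.11 and 10.36 in fTyS lungs, a 1.30-fold difference that did not overlap and stood at the threshold (0.38 ± 0.08, limma, adjusted p = 0.05). Ei24, an endoplasmic reticulum protein of the p53 pathway, had 11.18, 11.12 and 11.13 in radiation+fTyS lungs and 10.91, 10.92 and 10.76 in fTyS lungs (0.28 ± 0.06, limma, adjusted p = 0.0399). Cdkn1a encodes the cell cycle inhibitor p21, a classical p53 target, and was not called. Its values were 12.06, 11.61 and 12.04 in radiation+fTyS lungs and 10.68, 11.07 and 10.90 in fTyS lungs, which do not overlap, and the difference was 1.02 ± 0.38 (limma, adjusted p = 0.238). The arrays of the groups lay apart on 15 of the 27 targets, beside 15.8% of all genes, 14 of them higher in radiation+fTyS lungs. Targets with a difference near 0 included the nucleotide excision repair gene Xpc (0.01), the ribonucleotide reductase subunit Rrm2b (0.01) and the epithelial gene Perp (0.01), and the lowest was the death receptor Fas at -0.31 (limma, adjusted p = 0.464). Trp53 itself was not tested here.

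**Figure D1:**
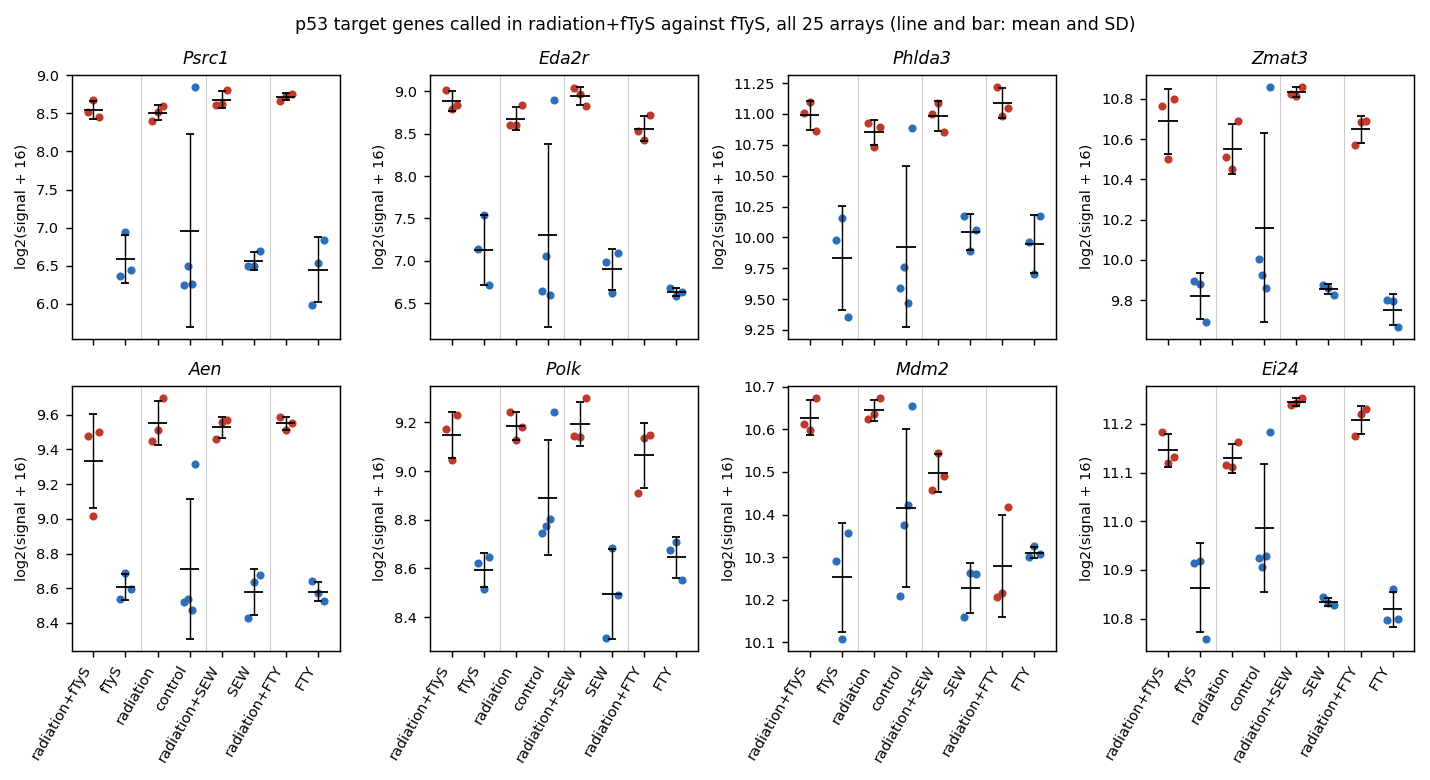
Log2(signal + 16) of the 8 called p53 target genes on all 25 arrays, by group (irradiated groups in red, each left of its unirradiated group in blue; line and bar, mean and SD). On every panel the 3 radiation+fTyS arrays lie above the 3 fTyS arrays, and 1 of the 4 control arrays, labelled replicate 4, lies above all other unirradiated arrays.

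With all arrays in the fit, none of the 8 increases differed by the test from the response without a compound. The same targets differed by 0.14 (Ei24) to 1.55 (Psrc1) between radiation and control lungs, where 4 of the 27 were called higher, Psrc1, Eda2r, Phlda3 and Aen, beside 2.29% of all genes, and none lower, beside 2.11%. Without the array labelled control replicate 4, where 6.83% of all genes were called, 12 of the 27 were higher, beside 3.31% of all genes, and 1 was lower, beside 3.52%. The lower one was Sesn1, a sestrin of the oxidative stress response (-0.37, limma, adjusted p = 0.0253). In the same setting Sesn1 stood at 0.18 under fTyS, uncalled, and the difference of the responses was 0.55 (limma, adjusted p = 0.0475). The test of the difference, the response with fTyS minus the response without a compound, gave -0.11 for Aen to 0.48 for Zmat3, with limma adjusted p from 0.328 to 0.863. Of the 27 targets 11 were called higher and 1 lower with SEW-2871, beside 13.8% and 3.92% of all genes. With FTY720 11 were called higher and 2 lower, beside 9.13% and 4.99%. The median differences were 0.33 with fTyS, 0.23 without a compound, 0.41 with SEW-2871 and 0.39 with FTY720. No target was called in the test of the fTyS response against the SEW-2871 or FTY720 response. Mdm2 differed by 0.38 with fTyS and -0.03 with FTY720 (difference 0.41, limma, adjusted p = 0.0846), and the antiproliferative gene Btg2 by 0.38 and -0.27 (difference 0.65, limma, adjusted p = 0.0546). Without the array labelled control replicate 4 the same differences gave limma adjusted p = 0.0439 and 0.037.

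The promoters of the 8 genes were looked up because p53 acts through a short sequence, the p53 half-site, usually present as a pair. The 4 with a match are shown, and none is shown for Psrc1, Eda2r, Phlda3 or Zmat3. The 250 bases before each gene's start were taken from RefSeq (build GRCm38.p6), which held 7 of the 8 genes, and searched for the consensus half-site, which reads the same on both strands. It was found in 4 of the 7 and in 9 of the 20 tested p53 targets that the table holds (45.0%). Of the genes called higher 6 of 34 held it (17.6%), and of all tested genes 757 of 10424 (7.26%). Of all 32851 windows of this length 7.13% held it. A match describes letters and shows no binding, and the search says nothing of sites outside the window. The half-site is in capitals, and each sequence runs 5′ to 3′ on the strand of its gene. Aen lies at chr7:78895808-78896057 on the plus strand, Ei24 at chr9:36797335-36797584, Mdm2 at chr10:117710759-117711008 and Polk at chr13:96519188-96519437, these 3 on the minus strand.
Aen: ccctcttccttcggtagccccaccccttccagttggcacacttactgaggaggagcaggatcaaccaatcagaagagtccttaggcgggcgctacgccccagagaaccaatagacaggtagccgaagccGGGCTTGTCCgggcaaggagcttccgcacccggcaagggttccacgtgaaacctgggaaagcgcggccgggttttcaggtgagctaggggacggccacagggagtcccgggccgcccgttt
Ei24: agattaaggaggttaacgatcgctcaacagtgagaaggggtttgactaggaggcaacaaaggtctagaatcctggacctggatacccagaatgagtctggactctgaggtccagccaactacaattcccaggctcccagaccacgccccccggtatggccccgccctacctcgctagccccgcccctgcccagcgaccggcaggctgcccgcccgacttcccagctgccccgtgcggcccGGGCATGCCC
Mdm2: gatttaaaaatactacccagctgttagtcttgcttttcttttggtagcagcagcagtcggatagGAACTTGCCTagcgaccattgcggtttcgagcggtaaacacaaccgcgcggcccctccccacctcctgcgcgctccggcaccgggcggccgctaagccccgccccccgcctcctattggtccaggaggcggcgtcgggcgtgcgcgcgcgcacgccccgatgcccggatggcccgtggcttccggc
Polk: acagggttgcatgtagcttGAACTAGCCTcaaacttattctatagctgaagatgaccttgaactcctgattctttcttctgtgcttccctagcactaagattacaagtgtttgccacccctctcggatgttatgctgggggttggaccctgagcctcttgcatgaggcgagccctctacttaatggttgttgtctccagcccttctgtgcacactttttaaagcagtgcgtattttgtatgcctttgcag

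The largest increase of all belonged to Gm6958, a predicted gene. It was at 9.22, 8.77 and 9.59 on the radiation+fTyS arrays and at 6.57, 6.09 and 6.32 on the fTyS arrays, and these fTyS values were near the filter. The groups were far apart, with a difference of 2.86 ± 0.45 or 7.28-fold (limma, adjusted p = 0.00972), and its second probe set gave 2.33. It also rose with SEW-2871 (2.24) and FTY720 (2.45), and the difference between the fTyS response and that without a compound was not called (2.02, limma, adjusted p = 0.106).

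Muc4 and Cxcl17, both made by airway epithelium, were among the 12 largest increases. Muc4, a membrane mucin, reached 10.04, 10.65 and 10.26 in radiation+fTyS lungs and 9.07, 9.22 and 9.34 in fTyS lungs (1.11 ± 0.17, limma, adjusted p = 0.00883). One of its other 2 probe sets gave 1.13 and the other -0.12. Muc4 also rose by 1.40 with SEW-2871 and by 0.95 with FTY720 (limma, adjusted p = 0.0001 and 0.00172). Cxcl17, a mucosal chemokine, was at 10.37, 11.09 and 10.58 in radiation+fTyS lungs and at 9.61, 9.95 and 9.87 in fTyS lungs (0.87 ± 0.17, limma, adjusted p = 0.034). Prom1, a membrane glycoprotein of epithelial surfaces, rose by 0.52 and Il33, an alarmin cytokine stored in alveolar type 2 nuclei, by 0.61 ± 0.13 (limma, adjusted p = 0.045). Of the 13 airway secretory genes none was called, and the list averaged 10.77, 11.67 and 11.32 in radiation+fTyS lungs and 10.90, 10.89 and 10.44 in fTyS lungs, which overlap. The widest difference in that list was Gp2, a glycoprotein of secretory cells, at 6.92, 8.70 and 8.32 in radiation+fTyS lungs and 5.93, 6.37 and 5.98 in fTyS lungs (1.89 ± 0.46, limma, adjusted p = 0.0691). The part of airway content in the increases of Muc4 and Cxcl17 was not tested. In whole lung, a change in the number of cells of a type and a change in RNA per cell cannot be told apart.

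Gria3, a subunit of AMPA glutamate receptors, had the smallest adjusted p of the comparison. It stood at 8.53, 8.44 and 8.47 in radiation+fTyS lungs and at 7.53, 7.43 and 7.54 in fTyS lungs, groups whose arrays lay close together and differed by 0.98 ± 0.13 (limma, adjusted p = 0.00651). Gria3 also rose with FTY720, by 0.88 (limma, adjusted p = 0.000803), and stood at 0.15 with SEW-2871, uncalled. Sstr2, a somatostatin receptor, rose by 1.0 ± 0.22 (limma, adjusted p = 0.0488). The receptor Sstr4 of the same family fell by 0.83 ± 0.18 (limma, adjusted p = 0.0445), with 7.31, 7.14 and 7.32 in radiation+fTyS lungs and 7.97, 7.82 and 8.49 in fTyS lungs, while its second probe set differed by 0.00. Increases of 0.82 to 0.98 were measured for Piwil4, an Argonaute protein of the piRNA pathway, the noncoding transcript B130024G19Rik and Rbm46, an RNA-binding protein of germ cells. These 3 genes had fTyS values of 6.29 to 7.11, close to the filter.

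Some of the called genes encode transcription factors and Wnt regulators. Meox2, a homeobox factor of mesenchyme and endothelium, reached 10.05, 9.92 and 9.80 in radiation+fTyS lungs and 9.48, 9.31 and 9.22 in fTyS lungs, a difference of 0.59 ± 0.11 (limma, adjusted p = 0.034). Hic1, a transcriptional repressor and marker of mesenchymal progenitors, rose by 0.79 ± 0.16 (limma, adjusted p = 0.0359), and Dact1, a modulator of Wnt signalling, by 0.58. Twist2, a basic helix-loop-helix factor of mesenchyme, fell by 0.65 ± 0.12 (limma, adjusted p = 0.034), and Fzd4, a Wnt and norrin receptor of endothelium, by 0.48. The fibroblast and pericyte list had 1 of 15 members called, Meox2, with a median of 0.19, and its means did not overlap: 10.14, 10.10 and 10.13 in radiation+fTyS lungs and 10.04, 9.95 and 9.81 in fTyS lungs. Of the 24 collagen and matrix genes none was called, though 20 lay above 0. Their median was 0.19, and Col5a2, a fibrillar collagen, stood at 0.56 ± 0.17 (limma, adjusted p = 0.135, and 0.0293 with the replicate block).

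Single members of other pathways rose. Ccnd1, which encodes cyclin D1, was at 12.39, 12.12 and 12.38 in radiation+fTyS lungs and at 11.80, 11.79 and 11.89 in fTyS lungs (0.47 ± 0.09, limma, adjusted p = 0.0359), the only call among 12 CDK inhibitors, D cyclins and senescence genes. Fdps, an enzyme of isoprenoid and cholesterol synthesis, had 10.34, 10.72 and 10.26 in radiation+fTyS lungs and 9.62, 9.73 and 9.78 in fTyS lungs (0.73 ± 0.15, limma, adjusted p = 0.0445), the only call among 19 genes of cholesterol and fatty acid synthesis, and its second probe set gave -0.01. Ephx1, the microsomal epoxide hydrolase, rose by 0.63 ± 0.11 (limma, adjusted p = 0.0188), Slc19a2, a thiamine transporter, by 0.80 ± 0.15 (limma, adjusted p = 0.034), and Ier5, an immediate early gene, by 0.38. No gene of DNA damage signalling and repair (19 tested) or of the cell cycle (23 tested) was called, with medians of 0.05 and -0.01, and 1721 genes in all had an unadjusted p under 0.05.

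Of the 13 tested S1P genes only the receptor S1pr3 was called under fTyS, where 0.332% of all genes were called higher. It was at 11.43, 11.24 and 11.38 in radiation+fTyS lungs and at 10.83, 10.67 and 10.97 in fTyS lungs, groups that did not overlap, a difference of 0.53 ± 0.10 or 1.44-fold (limma, adjusted p = 0.0349). Its 2 other probe sets gave 0.22 to 0.47. Over these receptors, kinases, lyase, phosphatases and carriers the list median was -0.01. S1pr1, the receptor of endothelium and lymphocyte egress, had 10.60, 9.72 and 10.34 in radiation+fTyS lungs and 10.33, 10.14 and 10.94 in fTyS lungs, which overlap (-0.25 ± 0.28, limma, adjusted p = 0.781). S1pr2 differed by 0.10 and S1pr4, the receptor of leukocytes, by 0.03, neither called. The kinases Sphk1 and Sphk2 differed by -0.22 and -0.06 and the lyase Sgpl1 by -0.01, all 3 uncalled. S1pr5 was not tested here. In the test of the difference from radiation without a compound 2 of the 13 were called higher, beside 0.989% of all genes. S1pr3 was among them (0.61, limma, adjusted p = 0.0388), where radiation alone gave -0.08. So was the S1P phosphatase Sgpp2 (1.06 ± 0.19, limma, adjusted p = 0.0178). It was at 9.69, 9.72 and 9.84 in radiation+fTyS lungs and at 9.24, 9.36 and 9.47 in fTyS lungs (0.39 ± 0.14, limma, adjusted p = 0.218), and fell by 0.66 without a compound (limma, adjusted p = 0.00581). The related phosphatase Sgpp1 differed by 0.22 ± 0.06 under fTyS (limma, adjusted p = 0.118, and 0.0405 with the replicate block). With SEW-2871 3 of the 13 S1P genes were called higher, beside 13.8% of all genes, and 1 lower, beside 3.92%. With FTY720 3 were called higher, beside 9.13%, and 2 lower, beside 4.99%. Against the SEW-2871 and FTY720 responses the test called no S1P gene higher with fTyS. It called 1 lower against the FTY720 response, beside 0.788% of all genes. None of the 20 tested ceramide and sphingomyelin enzymes was called, with a median of 0.05. The smallest p among these belonged to the alkaline ceramidase Acer2, at -0.35 ± 0.12 (limma, adjusted p = 0.176).

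The steepest decreases under fTyS had no common list. Tent5c, a cytoplasmic poly(A) polymerase known from plasma cells, was at 8.55, 8.37 and 8.81 in radiation+fTyS lungs and at 9.86, 10.33 and 9.66 in fTyS lungs, a difference of -1.37 ± 0.29 or 2.59-fold lower (limma, adjusted p = 0.045), with -1.07 at its second probe set. Krt79, a keratin listed here as an alveolar macrophage gene, was at 6.68, 7.17 and 6.59 in radiation+fTyS lungs and at 8.20, 8.04 and 8.04 in fTyS lungs (-1.28 ± 0.27, limma, adjusted p = 0.0445). It fell as well in radiation against control lungs (-1.51, limma, adjusted p = 0.0013), and was the only one of 15 alveolar macrophage genes called under fTyS. Galnt15, an enzyme of mucin-type glycosylation, fell by 1.0 ± 0.19 (limma, adjusted p = 0.034), with 8.33, 8.75 and 8.57 in radiation+fTyS lungs and 9.29, 9.69 and 9.68 in fTyS lungs. It also fell with FTY720, by 0.92 (limma, adjusted p = 0.00425), and stood at -0.25 with SEW-2871, uncalled. Its second probe set gave -0.18.

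Gdpd2, a glycerophosphodiester phosphodiesterase, showed the smallest adjusted p of the decreases. Its values were 7.26, 7.30 and 7.37 in radiation+fTyS lungs and 7.97, 8.26 and 7.88 in fTyS lungs, and the tight irradiated group lay below all fTyS arrays (-0.73 ± 0.11, limma, adjusted p = 0.00883). Pgr, the progesterone receptor, fell by 0.83 ± 0.17 (limma, adjusted p = 0.0359), but its 2 other probe sets gave -0.04 to 0.01. Nabp2, a single-stranded DNA-binding protein of genome maintenance, fell by 0.68 ± 0.14 (limma, adjusted p = 0.04). The remaining named decreases ran from -0.59 to -0.55 and comprised Cep70, a centrosomal protein, AU020206, Palm, a protein of the inner plasma membrane, and Cdk19, a kinase of the Mediator complex. Palm had a second probe set that went the other way (0.17).

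**Figure D2:**
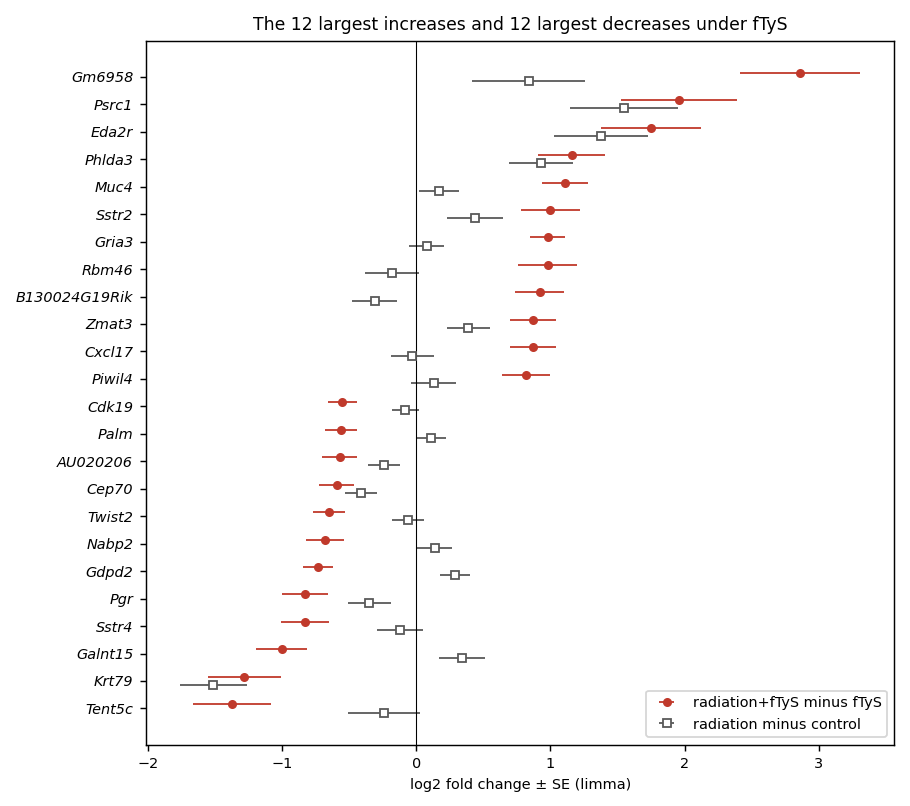
Log2 fold change with its SE (limma) of the 12 largest called increases and 12 largest called decreases under fTyS, for radiation+fTyS minus fTyS (filled) and for radiation minus control (open). Psrc1, Eda2r, Phlda3 and Krt79 have like values in both, while Muc4, Gria3 and Galnt15 stand at 1.11, 0.98 and -1.0 with fTyS and at 0.17, 0.08 and 0.34 without a compound. With FTY720, not drawn, these 3 genes stand at 0.95, 0.88 and -0.92.

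Of the 43 lists, the neutrophil genes had the medians that lay furthest apart between the fTyS response and the response without a compound. Of 11 tested neutrophil genes none was called under fTyS, where 0.456% of all genes were called, and their median was 0.03. In radiation against control lungs 7 were called higher, beside 2.29% of all genes, with a median of 2.07. With SEW-2871 none was called either, where 13.8% of all genes were called higher, and with FTY720 5 were called higher, beside 9.13% of all genes. Without the array labelled control replicate 4, 1 was called higher under fTyS, beside 0.765% of all genes, and 8 without a compound, beside 3.31%. In that setting 3 were called higher with SEW-2871, beside 1797 of the 12937 genes, and 6 with FTY720, beside 1219. The list averaged 8.53, 8.83 and 8.34 in radiation+fTyS lungs and 8.34, 8.62 and 8.55 in fTyS lungs, which overlap, and 10.36, 10.15 and 9.59 in radiation lungs and 7.73, 8.30, 8.09 and 8.48 in control lungs, which do not. Clec4d, a C-type lectin receptor of neutrophils and macrophages, was at 8.23, 7.89 and 7.78 in radiation+fTyS lungs and at 7.74, 8.42 and 7.72 in fTyS lungs. The difference was 0.00 ± 0.35 under fTyS and 2.69 ± 0.33 without a compound, and the 2 responses differed by -2.69 ± 0.48 (limma, adjusted p = 0.0167). The related receptor Clec4e gave -0.16 under fTyS and 2.65 without a compound, a difference of -2.82 ± 0.53 (limma, adjusted p = 0.0195). Mmp9, a neutrophil gelatinase, and Trem1, a receptor that amplifies inflammation, were the other 2 list members whose responses differed by the test, both named after their values were seen, so that 4 of 11 were called lower, beside 0.363% of all genes, and 6 without the array labelled control replicate 4, where 1.66% of all genes were called in either direction.

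Under fTyS the 11 neutrophil genes ran from -1.7 to 1.09, with 7 above 0. On 3 of the 11 the arrays lay apart, beside 15.8% of all genes, 2 of them higher in radiation+fTyS lungs. Csf3r, the receptor of granulocyte colony-stimulating factor, was at 8.65, 7.86 and 7.96 in radiation+fTyS lungs and at 7.47, 7.29 and 7.78 in fTyS lungs (0.64 ± 0.49, limma, adjusted p = 0.649), with a difference of responses of -2.65 (limma, adjusted p = 0.0563). The calprotectin subunits S100a8 and S100a9 differed by 0.36 and 0.34 under fTyS and by 2.41 and 3.09 without a compound, and their differences of responses were not called (limma, adjusted p = 0.116 and 0.0705). Stfa2l1, a stefin, and Wfdc17, a secreted protein of activated macrophages, did differ, by -3.34 and -2.51 (limma, adjusted p = 0.0264 and 0.0124). Lcn2, a siderophore-binding protein of neutrophils and injured epithelium, had the highest difference of the 11 tested members, at 12.10, 12.17 and 11.81 in radiation+fTyS lungs and 10.93, 10.59 and 11.31 in fTyS lungs (1.09 ± 0.28, limma, adjusted p = 0.0902, and 0.0201 with the replicate block). The test of the difference against the other compounds called no neutrophil gene, where SEW-2871 gave a list median of 0.57 and FTY720 of 1.38.

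Under fTyS 0.456% of all genes were called, so the lack of a call in the short lists below does not set their cell types apart. None of the 18 monocyte and interstitial macrophage genes was called under fTyS, with a median of 0.20, and 5 rose in radiation against control lungs, beside 2.29% of all genes. Ccr2, the chemokine receptor of recruited monocytes, was at 9.76, 9.51 and 9.64 in radiation+fTyS lungs and at 8.95, 8.81 and 9.18 in fTyS lungs, without overlap (0.66 ± 0.22, limma, adjusted p = 0.176). Its response without a compound was 1.03, and the difference of -0.37 was not called (limma, adjusted p = 0.608). B cell, T cell, natural killer and dendritic cell lists had no called member among 16, 11, 12 and 13 tested, with medians of 0.15, -0.05, 0.11 and -0.04. The interferon list had none among 21, and its mean was high on fTyS replicate 3 alone (10.22, against 9.16 to 9.75 on the other 5 arrays). Of 21 cytokines and chemokines Il33 was the only call.

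The means of the blood and plasma cell lists separated the groups, without a called member. All 9 platelet and megakaryocyte genes were below 0, with a median of -0.82, and the list averaged 7.80, 8.02 and 7.86 in radiation+fTyS lungs and 8.86, 8.81 and 8.65 in fTyS lungs. Clec1b, the podoplanin receptor of platelets, was at 6.94, 6.90 and 6.88 in radiation+fTyS lungs and at 8.41, 8.42 and 8.08 in fTyS lungs (-1.40 ± 0.33, limma, adjusted p = 0.0566). Gp5, a subunit of the platelet von Willebrand factor receptor, had 7.0, 7.28 and 7.18 in radiation+fTyS lungs and 7.60, 7.54 and 7.63 in fTyS lungs (-0.44 ± 0.10, limma, adjusted p = 0.0545). With the replicate block 5 of the 9 were called lower, beside 0.402% of all genes. Without the array labelled control replicate 4, 4 were, beside 0.456%, and Clec1b and Gp5 were among them in both.

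The 3 tested erythroid genes had a median of -1.84 and ran from -2.37 to 0.27, with 1 above 0. On 2 of the 3 the arrays lay apart, beside 15.8% of all genes. The list means were 8.01, 8.03 and 8.18 in radiation+fTyS lungs and 8.91, 9.76 and 9.49 in fTyS lungs. Alas2, the erythroid enzyme of heme synthesis, was at 6.76, 7.52 and 7.56 in radiation+fTyS lungs and at 8.99, 10.87 and 9.09 in fTyS lungs (-2.37 ± 0.72, limma, adjusted p = 0.143), and Slc4a1, the red cell anion exchanger, differed by -1.84 ± 0.47 (limma, adjusted p = 0.0809, and 0.0263 with the replicate block). Plasma cell and immunoglobulin genes (12 tested) had a median of -0.52, with means of 9.24, 9.53 and 9.60 in radiation+fTyS lungs and 10.30, 9.99 and 9.93 in fTyS lungs. Of these 12 genes 3 lay above 0. On 7 the arrays lay apart, 2 of them higher in radiation+fTyS lungs. The part of blood and plasma cell content in the decrease of Tent5c was not tested.

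**Figure D3:**
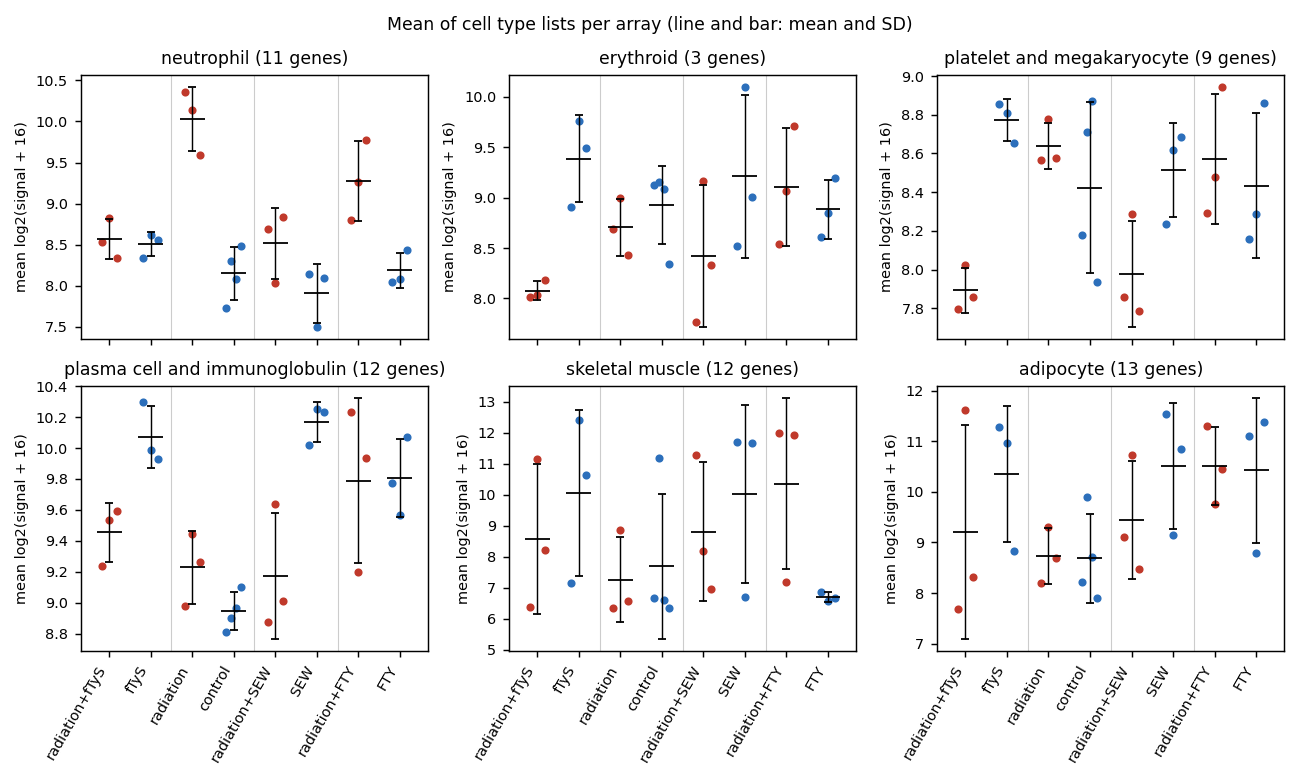
Mean log2(signal + 16) of 6 cell type lists on every array, by group (irradiated groups in red, each left of its unirradiated group in blue; line and bar, mean and SD). Neutrophil means overlap between radiation+fTyS and fTyS, platelet, erythroid and plasma cell means lie apart, and skeletal muscle and adipocyte means vary by several log2 units within a group.

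Muscle and fat genes differed in size without separating the groups. The skeletal muscle list (12 tested) had a median of -1.38 and the adipocyte list (13 tested) of -1.05, no member was called, and on no member did the arrays lie apart. Myl2, the ventricular and slow muscle myosin light chain, was an exception in the cardiac list, at 5.41, 5.51 and 6.12 in radiation+fTyS lungs and at 8.72, 11.46 and 9.42 in fTyS lungs, a difference of -4.19 ± 1.04 that was not called (limma, adjusted p = 0.0738). With the muscle and adipocyte means as covariates 77 genes were called and 43 of the 59 kept their call.

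Stress and clock genes showed wide differences that did not pass. Nr4a3, an orphan nuclear receptor induced within hours of many stimuli, was at 8.86, 8.25 and 9.15 in radiation+fTyS lungs and at 9.99, 9.71 and 9.85 in fTyS lungs (-1.10 ± 0.30, limma, adjusted p = 0.106). It had the opposite sign in radiation against control lungs (1.16, limma, adjusted p = 0.0218), and the difference of -2.25 ± 0.41 was called (limma, adjusted p = 0.0178). Junb, an AP-1 subunit, was at 8.83, 9.45 and 9.17 in radiation+fTyS lungs and at 8.5, 8.43 and 8.59 in fTyS lungs (0.64 ± 0.15, limma, adjusted p = 0.0583, and 0.046 with the replicate block). The heat shock gene Hspa1a differed by -1.45 ± 0.49 and the clock output factor Hlf by 0.81 ± 0.27 (limma, adjusted p = 0.187 and 0.19). The repressor Bhlhe40 of the clock differed by 0.59 under fTyS (limma, adjusted p = 0.142) and by -0.48 without a compound, and that difference was called (1.07, limma, adjusted p = 0.0358). On 14 of the 20 immediate early genes the radiation+fTyS and fTyS arrays lay apart, beside 15.8% of all genes, 11 of the 20 were above 0, and none was called.

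Endothelial genes were near 0 as a list, with a median of -0.06 over 23 tested and none called. They ran from -1.19 to 0.91, with 8 above 0. With the replicate block 1 was called higher, beside 0.696% of all genes, and 2 lower, beside 0.402%. The members of smallest p and 1 of the largest decreases of radiation alone follow, all of which fell. Tek, the angiopoietin receptor of endothelium, was at 11.23, 10.97 and 11.13 in radiation+fTyS lungs and at 11.65, 11.57 and 11.84 in fTyS lungs (-0.57 ± 0.15, limma, adjusted p = 0.0863, and 0.0113 with the replicate block). Sox17, an endothelial transcription factor, differed by -0.66 ± 0.17 (limma, adjusted p = 0.0859). Aplnr, the apelin receptor of endothelium, had 9.88, 9.45 and 9.50 in radiation+fTyS lungs and 10.90, 10.52 and 10.99 in fTyS lungs, which do not overlap (-1.19 ± 0.32, limma, adjusted p = 0.102, and 0.0224 with the replicate block). It was among the 8 largest decreases of radiation alone (-1.77, limma, adjusted p = 0.00148).

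**Figure D4:**
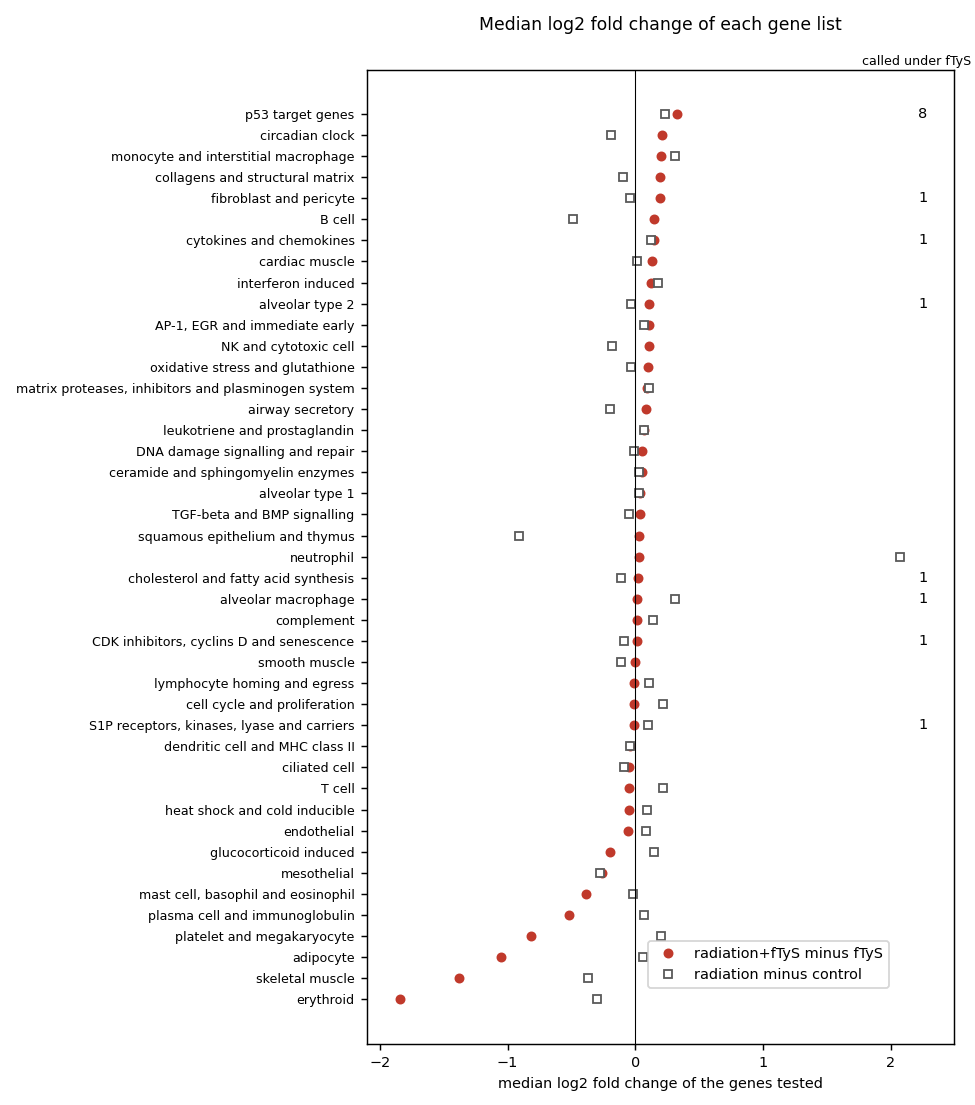
Median log2 fold change of the tested members of 43 gene lists, for radiation+fTyS minus fTyS (filled) and radiation minus control (open), with the number of members called under fTyS at the right (blank where 0). p53 target genes stand highest under fTyS at 0.33 with 8 calls, the neutrophil list at 0.03 under fTyS and 2.07 without a compound, and the erythroid list lowest at -1.84.

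The response without a compound was then followed into the fTyS arrays. The 4 radiation responses share no array. All rest on 1 estimate of the spread, so a gene called in 1 response is more readily called in another. Radiation against control lungs gave 569 called genes (4.40% of those tested), 296 higher and 273 lower. Of the 296 that rose without a compound, 229 had the same sign under fTyS (77.4%) and 7 were called higher there (2.36%), beside 0.332% of all genes. Their median was 0.10 under fTyS and 0.59 without a compound. With SEW-2871 their median was 0.21 and 64 were called higher (21.6%), beside 13.8% of all genes. With FTY720 it was 0.33 and 112 were called higher (37.8%), beside 9.13%. Of the 273 that fell without a compound, 117 had the same sign under fTyS (42.9%). Under fTyS 1 was called lower, beside 0.124% of all genes, and 2 were called higher, beside 0.332%. The median of the 273 was 0.02 under fTyS and -0.39 without a compound. Without the array labelled control replicate 4, radiation against control gave 884 genes. Of these, 45 were called in the same direction under fTyS (5.09%), where 1.22% of all genes were called. The 569 were 275 and 291 without control replicates 2 and 3, and 232 and 365 without radiation replicates 1 and 2.

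The 7 genes that rose in both were Psrc1, Eda2r, Phlda3, Aen, Slc19a2, Ephx1 and Ier5, and the gene that fell in both was Krt79. Car8, a carbonic anhydrase-related protein, and Ptprd, a receptor tyrosine phosphatase, moved in opposite directions. Car8 was at 11.56, 11.60 and 11.63 in radiation+fTyS lungs and at 11.18, 11.07 and 11.39 in fTyS lungs (0.38, limma, adjusted p = 0.0349) and fell by 0.36 without a compound (limma, adjusted p = 0.00569). Ptprd rose by 0.43 under fTyS and fell by 0.35 without a compound (limma, adjusted p = 0.045 and 0.0247). These 10 genes were listed after their values were seen.

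**Figure D5:**
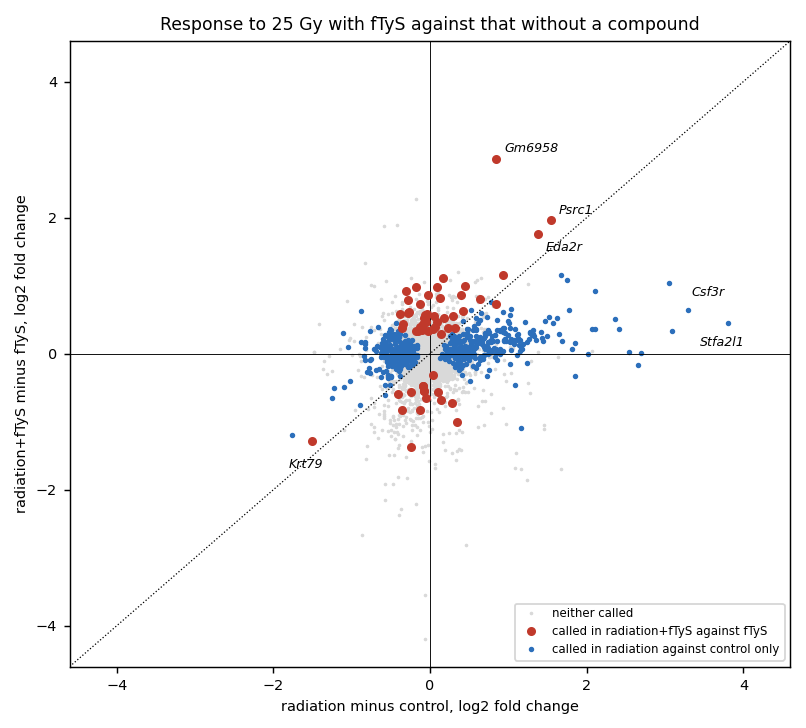
Log2 fold change of each tested gene for radiation+fTyS minus fTyS (vertical) against radiation minus control (horizontal), with equal scales and the line of equality dotted; genes called under fTyS in red, those called only without a compound in blue. The 296 genes called higher without a compound have a median of 0.10 on the vertical and 0.59 on the horizontal axis, among them Csf3r (0.64 under fTyS, 3.29 without a compound) and Stfa2l1 (0.46 and 3.80).

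The difference of the fTyS response from the response without a compound was itself called for 175 genes (1.35%), 128 higher (0.989%) and 47 lower (0.363%). Pmepa1, an inhibitor of TGF-beta signalling, led them. It was at 10.99, 10.85 and 11.02 in radiation+fTyS lungs and at 10.69, 10.63 and 10.82 in fTyS lungs (0.24, limma, adjusted p = 0.073), and differed by -0.39 without a compound, which made a difference of 0.63 ± 0.08 (limma, adjusted p = 0.00233). The transcript 6820431F20Rik had 0.14 under fTyS and -0.83 without a compound (difference 0.96, limma, adjusted p = 0.00511). On the lower side stood Gdpd2 (-1.02, limma, adjusted p = 0.00711), Wfdc17, Dedd2, a death effector domain protein (-0.92), and Mboat7, a lysophospholipid acyltransferase (-0.59, limma, adjusted p = 0.0124 for both). Of the 43 genes called higher under fTyS, 20 were called in this difference, and 4 of the 16 called lower, but the fTyS arrays enter both tests. The 175 became 94 after quantile normalization, with 45 higher and 49 lower, and 31 to 229 when single arrays were left out, 31 of them without radiation replicate 2.

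The other compounds gave larger counts at the same dose and schedule. Radiation+SEW against SEW lungs gave 2295 called genes (17.7%), and radiation+FTY against FTY lungs 1826 (14.1%). Of the 43 genes that rose under fTyS, 41 had the same sign with SEW-2871. There 29 were called higher, beside 13.8% of all genes. With FTY720 38 had the same sign and 24 were called higher, beside 9.13%. The median over all genes was itself above 0 with SEW-2871 (0.0434) and FTY720 (0.0435). All groups share the spread of a gene, so genes called under fTyS are more readily called elsewhere than all genes, and these counts are a description. Without a compound 21 had the same sign and 7 were called higher, beside 2.29%. With the array labelled control replicate 4 left out of that comparison these were 25 and 12, beside 3.31%. Of the 99 genes that rose under fTyS without that array, 70 had the same sign without a compound. Of these 99, 30 were called higher there, beside the same 3.31%. Of the 16 that fell, 13 had the same sign with SEW-2871 and 2 were called lower, beside 3.92% of all genes. With FTY720 15 had the same sign and 7 were called lower, beside 4.99%. The responses with fTyS and with SEW-2871 differed by the test at 367 genes (2.84%), 57 higher (0.441%) and 310 lower (2.4%) with fTyS, and those with fTyS and with FTY720 at 150 (1.16%), 48 higher (0.371%) and 102 lower (0.788%). The first split turned to 56 higher and 50 lower and the second to 87 higher and 38 lower after median centring, so no direction is read from either.

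The genes of smallest p in these differences had values under fTyS on both sides of 0. Ranbp9, a Ran-binding scaffold protein, was at 10.14, 10.15 and 10.16 in radiation+fTyS lungs and at 9.87, 9.85 and 10.08 in fTyS lungs (0.22, limma, adjusted p = 0.107). It differed by -0.32 with SEW-2871 and -0.25 with FTY720, and the differences were 0.53 and 0.47 (limma, adjusted p = 0.0112 and 0.0244). Clk1, a kinase of splicing factors, had -0.03 under fTyS and -0.75 with SEW-2871 (difference 0.72, limma, adjusted p = 0.0157), and Brwd1, a bromodomain protein, 0.09 and with FTY720 -0.64 (difference 0.73, limma, adjusted p = 0.0244). Azin1, the antizyme inhibitor of polyamine metabolism, did change under fTyS. It was at 11.34, 11.28 and 11.32 in radiation+fTyS lungs and at 10.90, 10.97 and 11 in fTyS lungs (0.36 ± 0.06, limma, adjusted p = 0.00883), and at -0.15 with FTY720. Opposite differences were found for Atg9a, a membrane protein of autophagy, at -0.27 under fTyS and 0.69 with FTY720 (difference -0.96, limma, adjusted p = 0.0216), and Trub2, a mitochondrial pseudouridine synthase, at -0.03 and 0.75 (difference -0.78, limma, adjusted p = 0.0216).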

How the data were processed

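Total lung RNA (6 µg) was biotin-labelled and hybridised to Affymetrix mouse arrays, per the labels' protocols. The authors deposited a linear signal intensity for every probe set of every array, and GCOS, the Affymetrix operating software, is named without a version, per the submitters' processing notes. The summary method and scaling are not given in the sources used here, so alternatives to them could not be tried. The signal ran from 0.53 to 19112, and the array medians lay between 118.33 and 129.58.

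Of 45101 probe sets, 64 control probe sets, 932 with several gene symbols and 9160 with none were left out. Values were turned into log2(signal + 16), and for each of 18193 genes the brightest probe set, by its mean over the 25 arrays, was used. Genes at or below the 40th percentile (6.49) were dropped, which left 12937. A single linear model (limma 3.58.1, R 4.3.3) with 8 group means, 17 residual degrees of freedom and eBayes with trend gave the 4 radiation responses and the differences between them, with two-sided tests adjusted by Benjamini-Hochberg over all genes of a comparison. SEs are those of the fit. It was tested on simulated data.

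The members, the 43 gene lists (800 entries, 736 matched) and the tests were chosen with earlier results of these data known. Named genes are the 12 largest called changes in each direction without overlap between arrays, up to 4 called members of each list or its 2 of smallest p, the 8 largest changes of radiation against control in each direction, the 4 of smallest p in each direction of each difference of responses, and Mdm2, Cdkn1a, Trp53 and S1P genes. Prom1, Dact1, Hic1, Fzd4, Slc19a2, Ephx1, Ier5, Aen, Trp53inp1, Xpc, Rrm2b, Perp, Fas, Btg2, Sesn1, Sgpp1 and Sgpp2 were named after their values were seen. Probe sets of a gene other than the representative are given where they disagree.

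Replicate numbers occur in the titles. Deviations of same-numbered arrays from their group means correlated at 0.261, 0.755 and 0.523 between radiation+fTyS and fTyS, and at 0.354, 0.529 and 0.166 between radiation and control, so a replicate block is given beside the main results. The correlations were of both signs between radiation+SEW and SEW (0.646, -0.0131 and -0.717) and between radiation+FTY and FTY (0.222, 0.378 and -0.113). Alternatives changed the normalization, pseudocount, filter, probe set rule, variance model, arrays in the fit and covariates. Those that left out control replicate 4 or an array of another group, or that combined the block with only the arrays compared, were chosen after seeing the data.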

Additional observations from a re-analysis of the deposited data

Results flagged for a closer look

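On 4 of 35 named genes examined, 1 of the 4 control arrays stood far from the other 3, as chance would give for about 1 in 20 groups. The gap to the nearest array, as a share of the group's range, was 0.906 for Psrc1, 0.855 for Zmat3, 0.881 for Polk and 0.918 for Ei24, each time with the array labelled control replicate 4 highest. Among the list means the share was 0.842 for p53 target genes and 0.916 for erythroid genes, where control replicate 4 was highest and lowest, and 0.935 for skeletal muscle genes, where control replicate 2 was highest.

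The response with fTyS differed by limma's test from the response without a compound for Muc4 (0.94), Gria3 (0.90) and B130024G19Rik (1.23) on the higher side. On the lower side it differed for Galnt15 (-1.34), Gdpd2 (-1.02), Nabp2 (-0.82) and Palm (-0.67). It differed from the response with SEW-2871 for Gria3 (0.83) and Palm (-0.77). All are log2 differences of responses, fTyS minus the other, and all 7 genes were called under fTyS itself, whose arrays enter both tests. None of the 7 differed by the test from the response with FTY720.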

How the results depend on the processing

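The 59 calls under fTyS lay close to the threshold. Leaving out single arrays gave 0 to 158, all 59 were lost without some array, and the array labelled control replicate 4 held the count down (158 without it). Scaling gave 30 calls (17 higher, 13 lower) with quantile normalization and 17 (10 higher, 7 lower) with median centring, which kept 28 and 15 of the 59. Array weights gave 3729 calls. The count was 36 without the filter, 23 with the mean of all probe sets and 10 with only the 6 arrays compared (2 with the block as well). The replicate block gave 142, with 58 of the 59. Pseudocounts, the stricter filter, eBayes without trend, the Gapdh ratio and the muscle and adipocyte covariates gave 43 to 77. The p53 count of 8 was 1 with quantile normalization, 0 with median centring and 0 to 9 without single arrays. The 8 radiation genes called in the same direction under fTyS were 2 with either scaling, 40 with the replicate block and 0 to 45 without single arrays.

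Radiation against control gave 1138 calls with array weights, 867 with the replicate block, 60 with only the arrays compared and 232 to 884 without single arrays, and quantile normalization turned its split to 376 higher and 192 lower. Radiation+SEW against SEW gave 4687 with array weights, 1318 with the Gapdh ratio and 919 to 2352 without single arrays, and median centring turned its split to 883 higher and 1149 lower. Radiation+FTY against FTY gave 605 with only the arrays compared and 932 to 1909 without single arrays, with a split of 597 higher and 1230 lower after median centring and of 945 and 720 after quantile normalization. Array weights took the differences from no compound, SEW-2871 and FTY720 to 2076, 3558 and 2938, and only the arrays compared to 3, 110 and 0. Median centring gave 86 and 106 for the differences from no compound and SEW-2871, quantile normalization 94 for the first, the mean of all probe sets 145 and the Gapdh ratio 15 for the second, the muscle and adipocyte covariates 366 and 689, and no filter 67 for the difference from FTY720. Without single arrays they were 31 to 229, 36 to 730 and 0 to 630. Where the difference from FTY720 was 0, limma gave 1962 unadjusted p under 0.05 with only the arrays compared. The replicate block changed no other count by over 1.5 times. Of the named genes' values under these settings 6240 kept direction and call, 1011 lost the call, 110 gained it and 1 changed sign, the difference of Arf2 from SEW-2871 (0.36 with the mean of all probe sets). The causes were not tested.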
